A study of Mus musculus with 12 samples.

Results

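Tight junctions seal the space between neighbouring epithelial cells, and 9 of their genes were followed here in mammary epithelial cells from mice with and without a p190B transgene: the claudins Cldn1, Cldn3, Cldn4, Cldn7 and Cldn8, the occludin gene Ocln, the zonula occludens scaffolds Tjp1 and Tjp3, and F11r, which encodes the adhesion protein JAM-A. The members were all probe sets that the platform annotation gives to exactly 1 of these symbols, whatever their values. That rule found 17 probe sets for the 9 genes among 45101 on the array. A probe set is the group of short probes that reads 1 transcript region.

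All 12 arrays held RNA from cells isolated from female FVB/N mice at 6 weeks of age, after 7 days on chow with 2 g/kg doxycycline that began at 5 weeks. The 6 control arrays came from MMTV-rtTA mice, in which a mammary tumour virus promoter drives a doxycycline-dependent activator in the mammary epithelium. The 6 p190B arrays came from MMTV-rtTA/TetO-p190B mice, which carry that activator and a second transgene in which tetracycline operator sequences control p190B together with luciferase. Both genotypes therefore carried the activator and ate doxycycline, and the comparison between them concerns the second transgene. The Arhgap5 gene encodes p190B, a protein that turns off small GTPases by making them hydrolyse their GTP. The labels call the arrays biological replicates and do not say whether glands were pooled.

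Claudins are proteins with 4 membrane passes whose outer loops pair across the cell border and set which ions and solutes leak between cells. Occludin and JAM-A join them in the membrane, and the ZO proteins bind their inner ends to the actin cytoskeleton. In the mammary gland these seals line the lumen between luminal cells and are known to tighten at the onset of milk secretion.

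Markers of the labelled tissue were read beside those of other cell types. All 14 measured luminal markers and all 10 basal and myoepithelial markers passed the filter on dim signals. So did all measured fibroblast (8), endothelial (8), lymphocyte (11) and macrophage (9) markers, so passing the filter does not identify the tissue. The lowest value of any probe set on any array was 0.1 units. Lymphocyte markers had the widest spread, with a mean log2 level from 6.94 to 10.50 in control and from 6.50 to 10.51 in p190B. The 4 Arhgap5 probe sets, which check the genotype labels, differed by between −0.32 and 0.41 on the log2 scale, and none passed (smallest limma adjusted p = 0.258). The sources used here do not say which of them the transgene transcript would reach. Values are linear intensities scaled per array. The level of a probe set is set only against itself on other arrays, because probes differ in brightness.

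None of the 9 genes differed between p190B and control cells beyond the spread between arrays. Of the 17 probe sets, 14 passed the filter on dim signals (a mean near 101 intensity units), and 0 of these 14 had a limma adjusted p under 0.05, where 0.0370% of all 27022 tested probe sets did (0.00370% higher and 0.0333% lower in p190B). None of the 14 had an unadjusted limma p under 0.05 either, against 9.32% of all tested (4.51% higher and 4.81% lower). The exact permutation test over the 924 splits of 6 against 6 arrays gave no p under 0.05 for any of the 14. There is no share over all tested probe sets to set beside that. On the log2 scale the differences ran from −0.20 for Cldn1 to 0.32 for Tjp3, with a median of 0.023 beside 0.017 over all tested probe sets. 8 were above 0 and 6 below. In this fit, which has no covariate, all 14 of the 95% intervals included 0 and lay within 1 log2 unit of it on both sides. A doubling or halving of any single signal thus lay outside its interval in this fit.

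**Figure D1:**
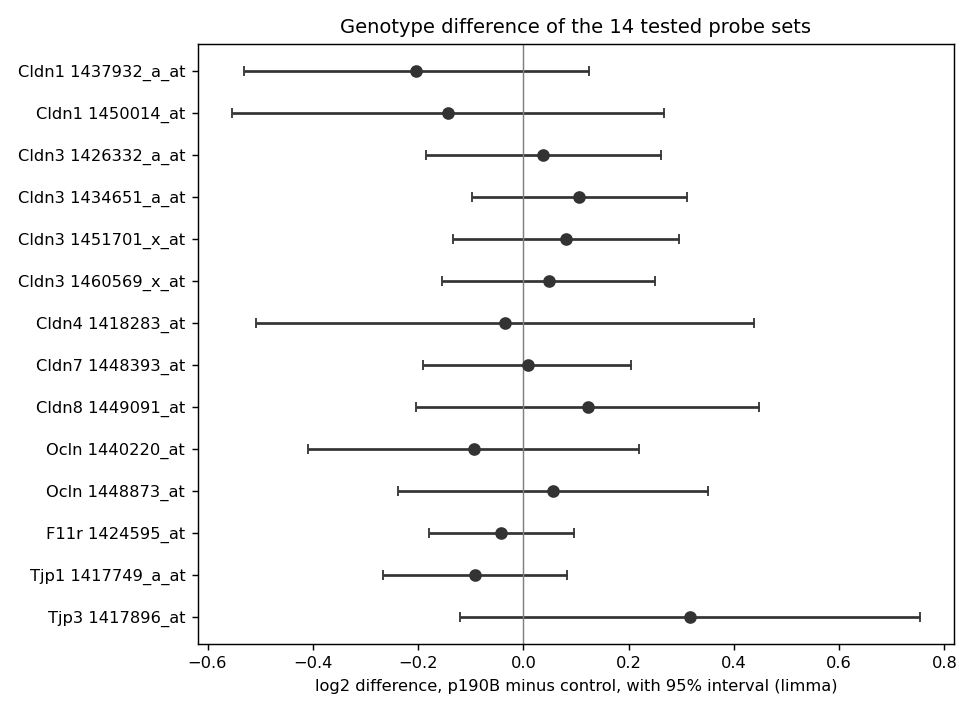
Log2 difference between p190B and control (p190B minus control, x axis) for each of the 14 tested probe sets (y axis), with points for the limma estimate and bars for its 95% interval, 6 arrays per group. Every bar crosses 0, and the bars of Cldn4, Cldn1 and Tjp3 are wider than those of Cldn3, Cldn7 and F11r.

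Cldn3, a sealing claudin that is abundant in simple epithelia, was read by 4 probe sets, and none of them differed between genotypes. By its brightest, 1460569_x_at, control arrays ran from 11128.5 to 16737.2 intensity units with a median of 13891, and p190B arrays from 12705.6 to 16218.4 with a median of 14087. The groups overlapped: no p190B array lay beyond the control range. Control averaged 13913 ± 2020 and p190B 14321 ± 1464 (SD, n = 6 arrays each). This is 0.048 on the log2 scale (SE 0.094, limma adjusted p = 0.927). Its other probe sets differed by 0.038, 0.11 and 0.081, and across the 12 arrays the 4 sets correlated with each other at r from 0.908 to 0.973. The median over 17884 pairs of probe sets of the same gene on this array was 0.358. Those pairs include dimmer probe sets and were not matched to the Cldn3 sets for brightness.

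Cldn7, a luminal claudin that is also found along the sides of the cells, had the difference closest to 0 of the 9 genes. Its signal ran from 8999.8 to 13512.5 in control (median 11417) and from 10060.2 to 12835.5 in p190B (median 11403). All p190B values fell inside the control range. The log2 difference was 0.008 (SE 0.092, 95% interval −0.19 to 0.20), with means of 11546 ± 1659 and 11541 ± 1031 (SD, n = 6 each).

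Cldn4, which like Cldn3 can serve as a receptor for a bacterial enterotoxin, was the most variable of the claudin signals by brightest probe set. Control arrays ran from 11618.7 to 24249.9 with a median of 17430, and p190B arrays from 11475 to 21250.6 with a median of 17797. Each genotype held bright and dim arrays: control replicates 2, 3 and 6 lay between 21371.1 and 24249.9, whereas replicates 1, 4 and 5 lay between 11618.7 and 13487.9. In p190B, replicates 1, 3 and 4 lay between 20451.3 and 21250.6 and the others between 11475 and 15143.5. The log2 difference of −0.034 (SE 0.221) had a 95% interval from −0.51 to 0.44, wider than that of Cldn3 or Cldn7.

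Cldn1, which is required for the water barrier of the epidermis, was lower in p190B by both of its bright probe sets, without passing. By 1437932_a_at the control arrays ran from 4708 to 8893.1 (median 6509) and the p190B arrays from 4702.1 to 8197.5 (median 5177). Control replicate 2 was the highest of all and p190B replicate 1 the next, and 5 of the 6 p190B arrays lay below the control median. The log2 difference was −0.20 (SE 0.153, limma adjusted p = 0.734), and by 1450014_at it was −0.14 (SE 0.192, adjusted p = 0.880). Control replicate 2 also had the highest signal of 1450014_at, 4107.1 units against a control median of 2218. The other Cldn1 probe sets, 1438850_at and 1438851_x_at, were dim, with values from 0.8 to 23.2 and from 0.9 to 49 units, and did not pass the filter.

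The same control array carried the most signal of skin keratinocyte genes. On control replicate 2, Krt1, a keratin of the upper epidermis, read 1230.3 units, and its partner Krt10 read 3335.6. Lor, which encodes the cornified envelope protein loricrin, read 1910.9. Control replicate 1 came next, with 307.6, 2057.5 and 563.3 for the same genes, and the other 10 arrays reached at most 201.1, 1073.8 and 306. Sprr1a, the remaining keratinocyte marker, was highest on p190B replicate 6 instead, at 6865.9 units, and read 2293.5 on control replicate 2. Control replicate 1 had 1996 units of Cldn1 by 1450014_at, below the control median of that set. By 1437932_a_at it had 6881.4 units, above the control median of 6509. Without control replicate 2 the Cldn1 differences were −0.11 and 0.024, the latter with the opposite sign. The part of keratinocyte RNA in the Cldn1 signals was not tested.

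Cldn8, a claudin that blocks the passage of cations in kidney tubules, ran from 1940 to 3016.5 in control (median 2491) and from 1699.4 to 3322.6 in p190B (median 2773). Both the lowest and the highest array belonged to p190B: replicate 4 and replicate 6. The log2 difference was 0.12 (SE 0.152, limma adjusted p = 0.865).

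Ocln, the gene of the first membrane protein found at tight junctions, differed in sign between its 2 probe sets. The brighter, 1448873_at, ran from 1776 to 3377.1 in control (median 2680) and from 2467.3 to 3562.9 in p190B (median 2593), a log2 difference of 0.056 (SE 0.137). The dimmer, 1440220_at, gave −0.094 (SE 0.147), although both sets moved together from array to array (r = 0.861 over 12 arrays). Neither differed between genotypes by limma, with adjusted p = 0.944 and 0.903. On 1448873_at, p190B replicate 1 stood alone at 3562.9 units while the other p190B arrays lay between 2467.3 and 2704.

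F11r encodes JAM-A, an immunoglobulin-like protein of the junction that leukocytes and platelets also carry. Its signal by 1424595_at was the steadiest of the 9 genes over all 12 arrays, with the highest array 1.34 times the lowest. Control arrays ran from 7875.8 to 10542.3 (median 9117) and p190B arrays from 8520.8 to 9354.2 (median 8841), and the log2 difference was −0.042 (SE 0.064, 95% interval −0.18 to 0.096). The second F11r set, 1436374_x_at, was dim, from 11.8 to 110.4 units, and did not pass the filter.

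The ZO scaffolds were read by 1 probe set each. Tjp1, which encodes ZO-1, ran from 7603.9 to 8838.6 in control (median 8407) and from 6284.5 to 8944.9 in p190B (median 7688). In p190B 3 arrays lay below every control array and 2 above every control array. Control averaged 8262 ± 479 and p190B 7795 ± 1025 (SD, n = 6 arrays each), or −0.092 on the log2 scale (SE 0.082, limma adjusted p = 0.781). Whether the spread itself differs was not tested.

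Tjp3, which encodes ZO-3, a scaffold restricted to epithelia, had the largest difference of the 9 genes and the smallest unadjusted p, and it too did not pass. Control arrays ran from 349.3 to 775.9 (median 552) and p190B arrays from 444.5 to 910.2 (median 734). The 2 highest p190B arrays, replicates 1 and 3, exceeded all control arrays, and none lay below the control range. The log2 difference was 0.32 (SE 0.204, 95% interval −0.12 to 0.75), with an unadjusted limma p of 0.143 and an adjusted p of 0.684. The exact two-sided permutation p was 0.201.

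**Figure D2:**
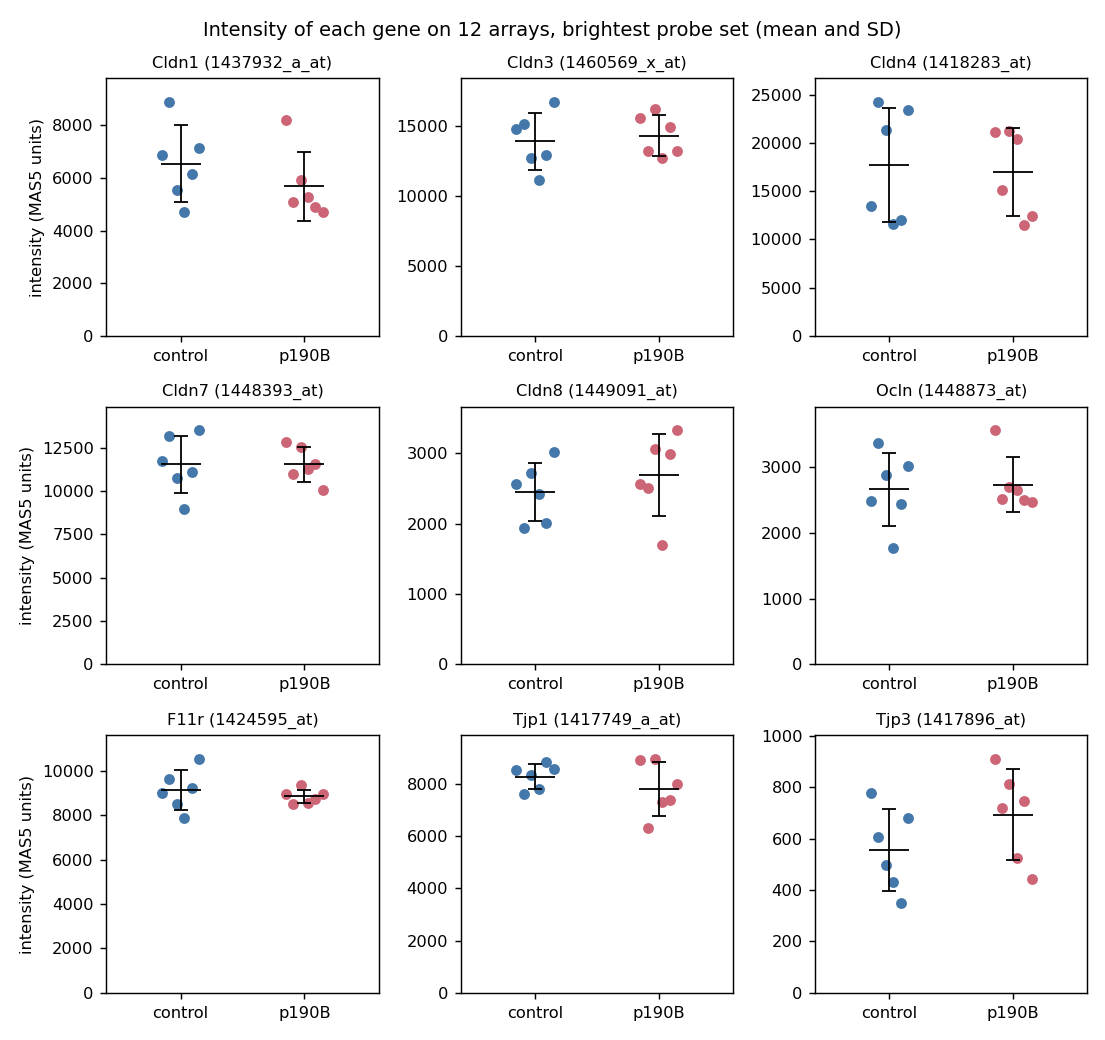
Intensity (MAS5 units, y axis from 0) of each gene by its brightest probe set on the 6 control and 6 p190B arrays (x axis). Points are arrays, the horizontal bar is the mean and the whiskers the SD. The 2 genotypes overlap in all 9 panels, Cldn4 splits into bright and dim arrays within each genotype, and Cldn1 and Ocln each have 1 p190B array above the other 5.

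The arrays of the 2 genotypes also differed in how well the far end of control transcripts was read. The log2 ratio of the 3′ over the 5′ control probe set was −0.40 ± 0.06 in p190B and −0.49 ± 0.02 in control for Gapdh, and 0.40 ± 0.11 and 0.29 ± 0.03 for Actb (SD, n = 6 each). With the Gapdh ratio as a covariate the log2 difference was −0.52 for Cldn1 (1437932_a_at), −0.45 for Cldn4, −0.36 for Ocln (1440220_at) and 0.035 for Tjp3. With the Actb ratio it was −0.43, −0.33, −0.31 and 0.023 for the same sets. None of the 14 sets passed in either fit, where the smallest limma adjusted p was 0.735 and 0.327. The Gapdh ratio nearly separated the genotypes, with control at most −0.471 and p190B at least −0.478, so these estimates are imprecise. Over all tested probe sets the median SE was 0.189 with the Gapdh ratio and 0.144 with the Actb ratio, against 0.124 without a covariate. The part of these ratios in the genotype differences was not tested.

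Although genotype did not separate them, 7 of the 9 genes varied from array to array together with at least 1 other member: Cldn1, Cldn3, Cldn4, Cldn7, Ocln, F11r and Tjp3. Of the 36 pairs among the 9 genes, 32 had a positive Pearson r over the 12 arrays, and 10 had an adjusted p under 0.05 in a permutation test with 100000 resamples and Benjamini-Hochberg adjustment over the 36 pairs. By Spearman's rho 5 pairs passed: Cldn7 with Cldn1, Cldn3 and F11r, Cldn3 with F11r, and Cldn4 with Ocln. Tjp3 thus had a passing pair by Pearson's r alone (with Cldn3, adjusted permutation p of rho 0.0719), and the pairs of Ocln with Cldn7, Cldn1 and Cldn3 and of Cldn4 with Cldn7 did not pass by rho (0.0649, 0.0732, 0.119 and 0.119). These pairs were examined after the values of the genes had been seen. The share of pairs that would pass among all other tested probe sets was not computed, so the counts have no such share beside them. All arrays share 1 scaling method, and its part in these correlations was not tested. The median r of a member with all other tested probe sets lay from −0.046 to 0.036, which does not give the spread of those r.

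Cldn3 and Cldn7 were the closest pair, with r = 0.914 and rho = 0.846. The permutation p of this r was 1e-05, the smallest the resamples can give, and 0.00036 after adjustment. Without the 2 arrays farthest from the Cldn7 median r was 0.816. Within control it was 0.965 and within p190B 0.821. Both genes were lowest in control on replicate 4, at 11128.5 and 8999.8 units, and highest in control on replicate 6, at 16737.2 and 13512.5.

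Cldn7 was also close to Ocln (r = 0.843, rho = 0.720, adjusted permutation p = 0.00822) and to F11r (r = 0.820, rho = 0.755, adjusted p = 0.00822). With F11r r was 0.612 without the 2 arrays farthest from the F11r median and 0.449 within p190B. Cldn4 was closest to Ocln (r = 0.787, rho = 0.860, adjusted permutation p = 0.00468), and r was 0.864 without the 2 arrays farthest from the Ocln median. Cldn1 followed Cldn7 (r = 0.804, rho = 0.832, adjusted permutation p = 0.00822) and Ocln (r = 0.769, rho = 0.685, adjusted p = 0.0104). Cldn3 and F11r gave r = 0.807 and rho = 0.755 (adjusted permutation p = 0.00822), which dropped to 0.588 without the 2 arrays farthest from the F11r median. The other pairs past the threshold were Cldn3 with Tjp3 (r = 0.747, rho = 0.699), Cldn3 with Ocln (r = 0.695, rho = 0.601) and Cldn4 with Cldn7 (r = 0.700, rho = 0.601), with adjusted permutation p of 0.0273, 0.0418 and 0.0418. Without the 2 farthest arrays Cldn3 with Ocln gave 0.406.

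No pair with Cldn8 or Tjp1 passed, which does not show that they differ from the other members. The r of Cldn8 with the other members ran from −0.25 for Cldn1 to 0.35 for Cldn3, and that of Tjp1 from 0.002 for Tjp3 to 0.42 for Cldn1. Within p190B Tjp1 gave 0.872 with F11r and 0.722 with Cldn3, and within control 0.309 and 0.217. The correlation between the 2 ZO scaffolds, 0.002, was the closest to 0 of the 36.

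**Figure D3:**
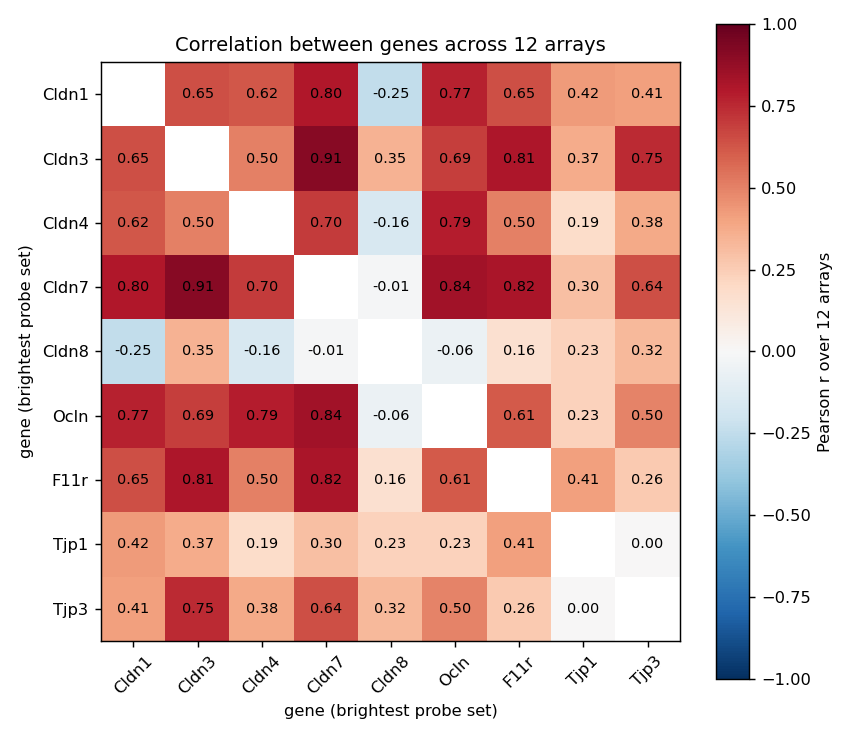
Pearson r over 12 arrays between each pair of the 9 genes, each by its brightest probe set (both axes), with the value printed in each cell and the colour running from −1 to 1. Cldn1, Cldn3, Cldn4, Cldn7, Ocln and F11r form a block of values from 0.50 to 0.91, and the Cldn8 and Tjp1 cells run from −0.25 to 0.42.

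**Figure D4:**
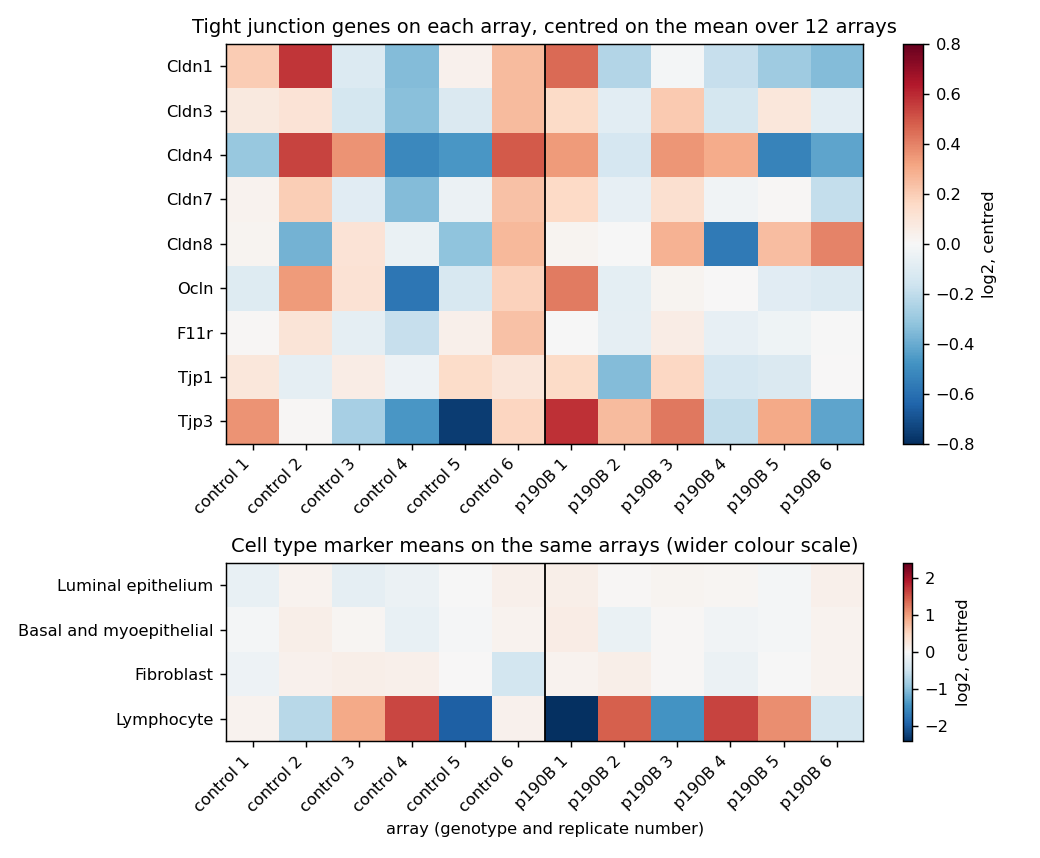
Upper map: log2 value of each gene (rows) on each array (columns), centred on its mean over 12 arrays. Lower map: mean log2 of 4 cell type marker lists on the same arrays, centred likewise on a wider colour scale. The line separates control from p190B. Control replicate 4 is low in Cldn1, Cldn3, Cldn4, Cldn7, Ocln and F11r and among the highest in lymphocyte markers. p190B replicate 1 is high in Cldn1 and Ocln and the lowest in lymphocyte markers. Other arrays go another way: p190B replicate 4, the highest in lymphocyte markers, is high in Cldn4. Control replicate 5, among the lowest in lymphocyte markers, is low in Cldn4.

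The cell types in each preparation also varied between arrays, and in such bulk samples fewer cells of a type and less RNA per cell cannot be told apart. Each gene was set against 4 marker means over the 12 arrays, 36 relations in all. All 9 genes had a positive Pearson r with the luminal mean and with the basal and myoepithelial mean, as did 48.4% and 50.3% of all tested probe sets. All 9 had a negative r with the fibroblast and the lymphocyte mean, as did 52.5% and 53.3% of all tested. Some signs depended on a few arrays or on 1 genotype: without the 2 arrays farthest from the median Tjp3 gave −0.161 with the basal mean, and Cldn4 and Ocln gave 0.338 and 0.082 with the fibroblast mean. With genotype means subtracted Cldn8 gave −0.099 with the luminal mean. The luminal r over all 12 arrays was only 0.011 for Tjp1 and 0.025 for Cldn8. Within control 7 of 9 genes had a positive r with the luminal mean and 7 of 9 with the basal mean. Within p190B these counts were 8 and 9. Within p190B 6 of 9 genes had a positive r with the fibroblast mean, and within control 3 of 9 had one with the lymphocyte mean. Of the 36, only 1 passed a permutation test adjusted over all of them: Ocln with the basal and myoepithelial mean (r = 0.844, adjusted p = 0.0144). Its rho was 0.643, which did not pass (adjusted permutation p = 0.190), and its r was 0.693 without the 2 arrays farthest from the median of the marker mean.

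Lymphocyte markers, a list of 14 of which 11 were measured, moved most strongly against Tjp1 (r = −0.721, rho = −0.776, adjusted permutation p = 0.116). Within control r was −0.451 and within p190B −0.894. For Cldn1 the r was −0.612 and for Cldn3 −0.506, and with Cldn8 it was −0.077. The luminal mean gave the highest r with F11r (0.529), Ocln (0.506) and Cldn7 (0.500), none past the threshold. Fibroblast markers gave their lowest r with F11r, at −0.641, which was −0.344 without the 2 farthest arrays and 0.150 within p190B. With the lymphocyte mean as a covariate the genotype differences of the 14 probe sets ran from −0.21 to 0.32, and none passed.

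Endothelial cells carry tight junctions of their own, so their markers were also read. Their 8 markers had a mean log2 from 11.67 to 12.31 in control and from 11.82 to 12.32 in p190B. Cldn5, the main claudin of blood vessels, gave 5043 ± 1496 units on the control arrays against 4874 ± 839 on the p190B arrays (SD, n = 6 each), which is −0.01 on the log2 scale (SE 0.182). The part of endothelial RNA in the signals of Tjp1 and F11r was not tested. The luminal mean was 13.59 in control and 13.71 in p190B, and 3 control arrays lay below every p190B array. Its part in the differences of the members was not tested. The basal mean was 12.59 in both genotypes, and the fibroblast mean was 13.99 and 14.05. The other marker means were 11.76 and 11.92 (control and p190B) for macrophages, 10.21 and 10.09 for adipocytes, 9.21 and 9.03 for skeletal muscle, 10.06 and 9.56 for keratinocytes and 14.50 and 14.42 for the 2 measured Schwann cell markers.

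The genes whose array pattern was most like each member were read from all tested probe sets with 1 symbol. Cldn3 was closest to Esrp1, an epithelial splicing regulator (r = 0.970 over 12 arrays), followed by Tmem184a (0.964) and Shmt1, a serine hydroxymethyltransferase (0.956). Cldn7 was closest to Pkp2, the desmosomal plaque protein plakophilin-2 (0.956), then Card14 (0.952) and Kdm5b, a histone demethylase (0.951). Of the probe sets compared, 0.237% reached an r of 0.9 with Cldn3, 0.233% with Cldn7 and 0.196% with Cldn1. Cldn1 was closest to Fhad1 (0.968), to Osmr, the oncostatin M receptor (0.965), and to Nfyb, a subunit of the CCAAT-binding factor NF-Y (0.960).

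For Cldn4 the nearest genes were Cab39, a scaffold of the kinase LKB1 (0.918), the transcription factor Klf6 (0.912) and Lmna, which encodes lamins A and C (0.911). Ocln was nearest to the translation factor Eif4b (0.955), to Galm (0.937) and to the ubiquitin ligase Arih1 (0.927). F11r was nearest to Zbtb10 (0.942), Galnt3, an enzyme that starts O-linked sugar chains (0.911), and the Mediator subunit Med24 (0.902). Tjp1 was nearest to the phospholipase Plcb1 (0.922), Bcorl1 (0.921) and Pdcd6ip (0.919), and Tjp3 to the actin-binding protein Rai14 (0.942), Plekhm1 (0.935) and Kmt2a (0.933). Cldn8 had only 1 probe set at or above 0.9, Tom1l1 (0.948), followed by Alad (0.897) and Mindy1 (0.883). These are descriptions over 12 arrays, with no test.

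To show the sequence around the members, the 250 bases upstream of each transcription start were read, from RefSeq's mouse build GRCm38.p6. Of the 9 genes, 8 (all but Cldn8) matched the promoter table, with 11 start sites. The upstream sequences of the neighbouring genes Cldn3 and Cldn4 and of the first Cldn7 start are shown in full, 5′ to 3′ on the gene's strand, because Cldn3 and Cldn7 were the closest pair while Cldn3 and Cldn4 gave only r = 0.500. Capitals mark the E-box CACCTG or its reverse complement CAGGTG, the letters that Snail and ZEB repressors of junction genes are known to bind.
Cldn3, chr5:134985964-134986213, + strand: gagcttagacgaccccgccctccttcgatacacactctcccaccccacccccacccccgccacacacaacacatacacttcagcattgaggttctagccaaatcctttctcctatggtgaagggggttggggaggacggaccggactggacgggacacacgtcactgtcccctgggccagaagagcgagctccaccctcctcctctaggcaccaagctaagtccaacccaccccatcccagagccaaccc
Cldn4, chr5:134946935-134947184, - strand: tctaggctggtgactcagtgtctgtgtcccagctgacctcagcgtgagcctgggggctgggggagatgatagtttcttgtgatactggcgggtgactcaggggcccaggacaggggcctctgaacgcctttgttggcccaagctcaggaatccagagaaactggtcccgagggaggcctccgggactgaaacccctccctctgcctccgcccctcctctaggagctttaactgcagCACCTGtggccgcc
Cldn7, first start, chr11:69964529-69964778, + strand: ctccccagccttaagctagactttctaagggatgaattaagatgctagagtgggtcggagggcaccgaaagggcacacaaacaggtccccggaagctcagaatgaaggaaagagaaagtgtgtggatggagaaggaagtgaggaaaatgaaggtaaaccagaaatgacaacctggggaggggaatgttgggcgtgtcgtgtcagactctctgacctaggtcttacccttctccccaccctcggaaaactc

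Of these 3 sequences only that of Cldn4 holds the E-box, 14 to 9 bases before the start. The second Cldn7 start, shown in part below, holds 2. Whether the E-box relates to the correlations between the genes was not tested. Across the members the E-box lay upstream of 6 of 11 starts, in 5 genes, where 17.2% of 32851 upstream windows of this length in the table hold it. The other occurrences are shown with their surroundings, 30 bases each, with the E-box in capitals.
Cldn7, second start, chr11:69965312-69965341, + strand: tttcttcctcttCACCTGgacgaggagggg
Cldn7, second start, chr11:69965352-69965381, + strand: agacttccggttCAGGTGagtgtcccttca
Ocln, second start, chr13:100552694-100552723, - strand: ccatcggagtttCAGGTGaatgggtcaccg
Ocln, second start, chr13:100552549-100552578, - strand: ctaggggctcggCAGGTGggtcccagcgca
Tjp3, first start, chr10:81291672-81291701, - strand: gtcacaaggggtCAGGTGtacagacaggga
Tjp3, second start, chr10:81291268-81291297, - strand: ccacaaaccctccCACCTGcaggccggcct
F11r, chr1:171437427-171437456, + strand: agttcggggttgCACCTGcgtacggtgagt

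Other motifs were searched on both strands in the same windows, and no motif contains the letters of another. The GC box GGGCGG, whose reverse complement reads CCGCCC, lay upstream of 8 of 11 starts (32.7% of all windows) and CCAAT of 3 of 11 (33.8%). The TATA box TATAAA lay upstream of 0 (12.4% of all), as did AACCGGTT, a core that grainyhead-like factors bind (0.116% of all). Cldn1, Cldn3 and Tjp1 had no E-box in these windows. The windows were not matched for base composition, and Cldn7, Ocln and Tjp3 are counted at more than 1 start. The median share of G and C bases over all windows was 52.4%. Among the members only the first starts of Tjp3 (43.2%) and Cldn7 (51.2%) lay below that median, and the second start of Ocln reached 69.2%. A match describes letters in a window and not a bound site.

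The factors that read the E-box were on the array. Snai2 gave a log2 difference of 0.28 (SE 0.118, limma adjusted p = 0.488) by its brightest probe set and −0.058 by the other. Zeb2 gave −0.30 (SE 0.126, adjusted p = 0.476), and its other tested sets ran from −0.43 to 0.15. Snai1 gave −0.18 (SE 0.125) and Zeb1 0.021 (SE 0.101). Grhl2, an activator of Cldn4 in epithelia, gave 0.032 (SE 0.144), Ovol1 0.065, Ovol2 0.057 and Elf3 0.13, and none of them passed by limma. Snai1, Snai2, Zeb1, Grhl2, Ovol1, Ovol2 and Elf3 were picked as examples after their values were seen.

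The genes around these members were read from a wider list. A list of 75 other genes of the junction, of cell polarity and of their regulators had 69 measured members, and 64 passed the filter by their brightest probe set. By limma 0 of 64 passed over all probe sets, beside 0.0370% of all tested. At an unadjusted limma p under 0.05 there were 7 (10.9%), 4 higher and 3 lower in p190B, against 9.32% of all tested. An exact permutation test gave 6 of 64 with p under 0.05, with no share over all tested probe sets to set beside it. The median log2 difference was 0.026 beside 0.017 over all tested probe sets, with 34 members above 0 and 30 below.

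Among 10 other claudins tested, 4 were above 0 and 6 below. Cldn2, which forms a cation-selective pore, was the farthest from 0: its control arrays ran from 223.6 to 382.3 units (median 325) and its p190B arrays from 378.7 to 532.1 (median 447). All but 2 of the p190B arrays exceeded the control range. The difference of 0.53 on the log2 scale (SE 0.139, 95% interval 0.23 to 0.83) had an unadjusted limma p of 0.00194 and did not pass over all probe sets (adjusted p = 0.234). A second Cldn2 probe set gave 0.095 (SE 0.241). The other junction membrane proteins, 10 in all, had 3 above 0 and 7 below, and the 13 tested plaque and scaffold genes had 7 above and 6 below. Of that last group Ybx3, the ZO-1-associated DNA- and RNA-binding protein ZONAB, gave −0.15 (SE 0.056, limma adjusted p = 0.439), and −0.023 by its other set. Polarity genes, 10 in all, had 6 above and 4 below, with no unadjusted p under 0.05. Rac1, a small GTPase that helps junctions assemble, gave 0.15 (SE 0.048, limma adjusted p = 0.381) by its brightest set and 0.003 by the other. Arhgef2, which encodes the exchange factor GEF-H1, held at tight junctions by cingulin, gave 0.24 (SE 0.094, limma adjusted p = 0.458), and its other sets gave 0.15 and 0.21.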

How the data were processed

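Per the labels' protocols, Trizol-extracted RNA was made into biotin-labelled cRNA for 1-colour Affymetrix arrays. The deposited table holds 1 linear intensity per probe set and array, made by the authors with MAS5, per the submitters' processing notes. The sources used here give neither its version nor a scaling target. Array medians ran from 187 to 210.5. Arrays have no read depth, and their number, 6 per group, limits the precision.

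Intensities were used as log2(value + 16), which understates changes of dim genes. Probe sets at or above the 40th percentile of the mean were tested by a two-sided moderated fit in R 4.3.3 (limma 3.58.1, lmFit and trended eBayes). Benjamini-Hochberg adjustment ran over 27022 probe sets, and the threshold was 0.05. The steps were tested on simulated data. Symbols came from the platform annotation. Of 45037 probe sets, 34945 had 1 symbol, 932 several and 9160 none. Where 1 probe set per gene was needed, the brightest was taken.

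The members and lists were chosen with earlier results of these data known. Genes named are the 9 members, the junction genes with the 3 smallest p in each direction (1 of them is not reported here) and the 3 nearest genes per member; others were picked after their values were seen. Replicate numbers were not taken to pair arrays: the deviations of same-numbered arrays correlated above 0.1 for 1 of 6 numbers (r from −0.287 to 0.408). The effects of other pseudocounts, filters, scalings, covariates and left-out arrays are given at the end. Of the listed junction genes, 6 were not analysed here.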

Additional observations from a re-analysis of the deposited data

Results flagged for a closer look

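A search for a lone distant array covered 36 groups of 6 arrays (14 probe sets and 4 marker means in each genotype) and found 1. Chance alone flags about 1 in every 20 groups, so 1 among 36 is no more than chance gives. Ocln by 1448873_at was 11.81 (log2) on p190B replicate 1, against 11.28 to 11.41 on the other p190B arrays. Without that array its log2 difference between genotypes was −0.022.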

How the results depend on the processing

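In no setting tried did any of the 14 tested member probe sets pass, and the smallest limma adjusted p of a setting ran from 0.327 to 0.814. Of 196 differences under 14 settings other than leaving out 1 array, 184 kept their direction and 12 turned. The cause of the turns was not tested. Several of these settings change only the test or the filter and leave each difference as it was, so it could not turn there. They are the fits without a filter, with the filter at the 60th percentile, without trend and with robust eBayes, the replicate block and the exact permutation test. The 184 therefore overstates how stable the directions were. With the Actb ratio as a covariate the Cldn3 sets gave −0.033 (1426332_a_at), −0.032 (1434651_a_at), −0.029 (1451701_x_at) and −0.087 (1460569_x_at), Cldn7 −0.111 and Ocln (1448873_at) −0.082. With the Gapdh ratio Cldn7 gave −0.061 and Ocln −0.142. Without p190B replicates 1 and 3 together, Cldn3 (1460569_x_at) gave −0.031, Cldn7 −0.064 and Ocln −0.040, while Tjp3 gave 0.143, Cldn1 (1437932_a_at) −0.363, Cldn4 −0.217, Ocln (1440220_at) −0.246 and Tjp1 −0.194. With equal medians Cldn7 gave −0.024. When each array was left out in turn, 17 of 168 differences turned: the ranges were −0.26 to 0.024 for Cldn1 (1450014_at), −0.048 to 0.111, −0.002 to 0.137 and −0.014 to 0.104 for Cldn3 (1426332_a_at, 1451701_x_at, 1460569_x_at), −0.141 to 0.071 for Cldn4, −0.062 to 0.055 for Cldn7, −0.083 to 0.001 for F11r and −0.054 to 0.13 for Ocln (1448873_at). The ranges that kept 1 sign were 0.196 to 0.433 for Tjp3, −0.314 to −0.109 for Cldn1 (1437932_a_at), 0.046 to 0.161 for Cldn3 (1434651_a_at), 0.055 to 0.247 for Cldn8, −0.183 to −0.018 for Ocln (1440220_at) and −0.134 to −0.033 for Tjp1. The replicate block left the member count at 0 (smallest adjusted p 0.684), lowered the count over all probe sets from 10 to 0 (2287 at an unadjusted limma p under 0.05), and only 2 of 12 arrays correlated best with their own number. Over all probe sets the count was 31 with quantile normalisation, 17 with the filter at the 60th percentile, 25 with the lymphocyte covariate, 5 without a filter, 4 with equal medians, 3 without trend, 0 with the Gapdh ratio (1802 at an unadjusted limma p under 0.05) and 1 with the Actb ratio. The spread between arrays, widest for Cldn4 and Tjp3, limits the size of difference that 6 arrays per group can show.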
